A study of Mus musculus with 60 samples.

Results

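Translocation junctions of mouse B-lymphoma cells collect in a set of 5 windows of 100 kb each: chr8:97200000-97299999, chr11:61400000-61499999, chr16:23100000-23199999, chr6:18800000-18899999 and chr15:79900000-79999999 in mm9. The 5 windows are members of 24999 windows that held at least 1 junction outside the bait window, and they hold 2663 of the 612253 junctions there (0.435%) over 60 libraries. LAM-HTGTS, a translocation sequencing assay that copies linearly outward from a fixed break, lists junction by junction where that broken end (the bait, here on chromosome 15) was joined to the rest of the genome. The cells were CH12F3, a line that can switch to IgA, and all 60 libraries came from cells that had received anti-CD40 together with IL-4 and TGF-β for 72 h.

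The design crossed 4 backgrounds with 3 treatments: DMSO as solvent, tazemetostat, or valemetostat. Tazemetostat inhibits EZH2, a histone methyltransferase, and valemetostat inhibits EZH2 and its relative EZH1. WT carries the label AID_WT and had 5 DMSO, 5 tazemetostat and 8 valemetostat libraries. WT plus idelalisib, the same cells with a PI3Kδ inhibitor, had 5 of each. AID-KO cells had 5, 4 and 3, and Lig4-KO cells (labelled Ligase4 KO) had 5 of each. The labels give no doses, no clone numbers and no sign that replicates were separate cultures, so p-values measure the spread between these libraries only.

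Activation-induced cytidine deaminase (AID) deaminates cytosine in the switch regions of the immunoglobulin heavy chain locus, preferring AGCT and related motifs, and the lesions are processed into breaks. It also acts, far less often, on other genes, mostly near their transcription start sites and in strongly active regulatory regions. Ligase 4 seals breaks in classical end joining, and inhibition of PI3Kδ is known to raise AID expression in mouse B cells. A junction list measures neither AID nor ligase 4, so the knockouts could not be checked by expression here.

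By the mouse gene map, the chr8 window lies where Ccl22, Cx3cl1 and Ccl17 follow each other, all of them genes of secreted or membrane-bound chemokines. The chr11 window lies in the stretch of Epn2 (an endocytic adaptor), Grap (an adaptor of the GRB2 family), Slc5a10 (a sodium-coupled sugar transporter) and Fam83g. The chr16 window lies in the stretch of Eif4a2 (a translation initiation helicase), Rfc4 (a subunit of the replication clamp loader), Adipoq (adiponectin) and St6gal1 (a sialyltransferase). The chr6 window lies near Lsm8 (a subunit of the ring that binds U6 RNA) and Ankrd7, and the chr15 window near Pdgfb (a growth factor chain), Rpl3 (a ribosomal protein), Syngr1 (a synaptic vesicle protein) and Tab1 (a partner of the kinase TAK1). All 17 names stood on the stated chromosome, side by side, in the RefSeq gene table of GRCm38.p6, whose coordinates were not used for the junctions. No mm9 annotation was used here, so no junction is placed in an exon, an intron or a promoter. In GRCm38.p6 the starts of Eif4a2 and St6gal1, and those of Epn2 and Slc5a10, lie more than 100 kb apart. The named genes therefore need not all start inside their window, and which of them do was not determined.

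The upstream sequences of 4 of these genes are shown for 2 windows. These are chr8, the window with the most junctions, and chr16, where most Lig4-KO junctions lie in another stretch than most WT junctions. The chr15 window, whose clusters also differed in weight between backgrounds, is not shown. Each is the 250 bases before the start of the gene in RefSeq (GRCm38.p6), 5′ to 3′ on the plus strand, with AGCT in capitals. AGCT is its own reverse complement, so 1 search covers both strands.
Ccl22, chr8:94745434-94745683: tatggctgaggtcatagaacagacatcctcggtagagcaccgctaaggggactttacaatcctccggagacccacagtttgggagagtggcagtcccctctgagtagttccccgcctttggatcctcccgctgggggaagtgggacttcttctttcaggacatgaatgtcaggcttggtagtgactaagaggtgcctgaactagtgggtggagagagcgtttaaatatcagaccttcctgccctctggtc
Cx3cl1, chr8:94771930-94772179: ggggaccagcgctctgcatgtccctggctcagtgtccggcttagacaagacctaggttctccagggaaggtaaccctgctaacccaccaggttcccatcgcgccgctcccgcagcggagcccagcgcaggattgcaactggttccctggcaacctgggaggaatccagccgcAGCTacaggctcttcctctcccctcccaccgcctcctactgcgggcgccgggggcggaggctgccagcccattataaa
Ccl17, chr8:94810203-94810452: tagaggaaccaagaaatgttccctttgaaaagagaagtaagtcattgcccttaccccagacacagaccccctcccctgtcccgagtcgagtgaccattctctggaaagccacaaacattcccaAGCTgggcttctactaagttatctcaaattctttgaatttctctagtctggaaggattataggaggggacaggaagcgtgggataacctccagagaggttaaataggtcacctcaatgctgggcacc
Eif4a2, chr16:23107218-23107467: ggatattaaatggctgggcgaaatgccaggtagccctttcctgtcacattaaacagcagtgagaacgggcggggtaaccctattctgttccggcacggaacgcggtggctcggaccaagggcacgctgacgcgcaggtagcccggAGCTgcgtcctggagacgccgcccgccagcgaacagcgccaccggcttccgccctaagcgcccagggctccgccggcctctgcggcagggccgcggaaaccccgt
AGCT stood 1 time in Cx3cl1, Ccl17 and Eif4a2 and 0 times in these letters of Ccl22. Of 32851 promoter windows of the same length, 70.4% held it, so a match sets none of them apart. The coordinates of these sequences are of another build than the junctions, and the junctions were not laid on them.

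The windows were selected on junction counts: they belong to the windows with many WT DMSO junctions and fewer in AID-KO DMSO. WT DMSO held 41 junctions in the chr8 window, 20 in chr11, 32 in chr15, 23 in chr16 and 16 in chr6, against a median of 1 over all windows. Respectively 4, 14, 7, 10 and 18 windows held more. These counts, the AID-KO DMSO counts and every difference between the 2 groups chose the members and are given as a description with no test. The exact limit used for the choice is not given in the sources used here.

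Rates are junctions per 10000 junctions outside the bait window (chr15:60815000-62815000). Libraries outside Lig4-KO held from 4990 to 15431 such junctions and Lig4-KO libraries from 12814 to 21685. A single junction was therefore worth from 0.648 to 2.0 per 10000 in the first set and from 0.461 to 0.780 in Lig4-KO. Rates of a few per 10000 rest on a handful of junctions, and each interval below covers counting error only. Read names placed the libraries in 6 sequencing runs, each of which held 1 or 2 backgrounds. Run 1 held WT with DMSO and with tazemetostat, and run 6 both valemetostat groups of WT, with and without idelalisib. Idelalisib with DMSO and with tazemetostat shared run 4, all Lig4-KO libraries shared run 5, and AID-KO had runs 2 and 3 to itself.

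**Figure D1:**
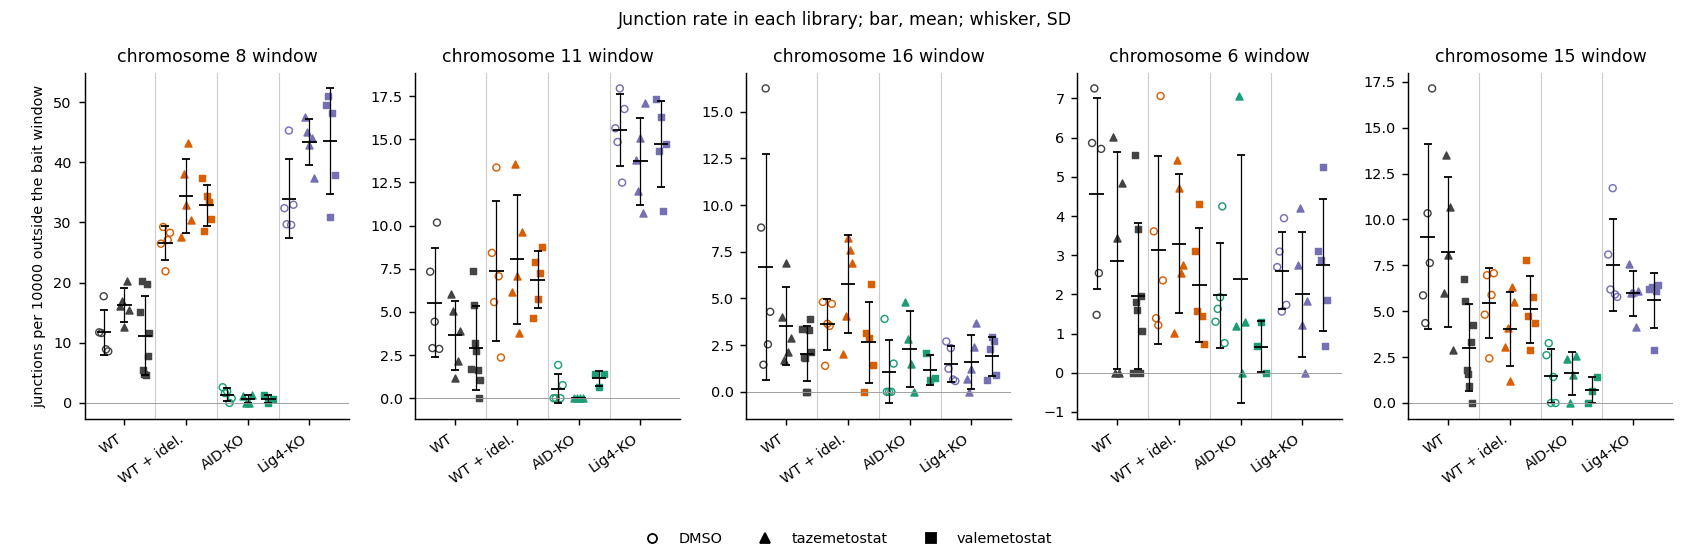
Junctions per 10000 outside the bait window in each of the 60 libraries (points), by background (colour and position) and treatment (marker), for the 5 windows, with the mean (bar) and SD (whisker) of each group. The chr8 window ran from 21.9 to 51.0 in WT plus idelalisib and Lig4-KO and stayed at or under 2.60 in AID-KO, while in the chr6 window the highest AID-KO library (7.06) reached the range of WT.

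The chr8 window was the strongest of the 5, with 1544 junctions. WT libraries stood at 8.57, 8.90, 11.6, 11.7 and 17.7 per 10000 with DMSO and at 12.6, 15.5, 16.0, 16.9 and 20.3 with tazemetostat. With valemetostat the 8 WT libraries had a lowest rate of 4.58, a median of 9.74 and a highest rate of 20.3. Idelalisib libraries ran from 21.9 to 29.2 with DMSO, from 27.6 to 43.1 with tazemetostat and from 28.5 to 37.3 with valemetostat. Every idelalisib library was above every WT library. How many of the other windows were separated in this way was not counted, for this or any later comparison. Lig4-KO libraries stood at 29.6, 29.7, 32.4, 32.9 and 45.3 with DMSO, at 37.3, 42.8, 44.0, 44.9 and 47.5 with tazemetostat and at 30.9, 37.8, 48.2, 49.5 and 51.0 with valemetostat. AID-KO libraries held 0, 1 or 2 junctions each, 10 in all. By pooled rate the window ranked 4 in WT, 3 under idelalisib, 4 in Lig4-KO and 1625 in AID-KO among the 24999 windows.

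Its junctions sat in a single narrow peak in all backgrounds that have AID. The densest 1 kb began at 97269900 in WT, under idelalisib and in Lig4-KO alike, and the narrowest stretch with 50% of all 1544 junctions was 1249 bases long. By background that stretch was 669 bases in WT, 1008 under idelalisib and 1321 in Lig4-KO. The 5 kb from 97264100 to 97269099 held 77 of 993 Lig4-KO junctions, 2 of 378 under idelalisib and 0 of 163 in WT. Lig4-KO has a run to itself, so run and background cannot be told apart. The 10 kb from 97265400 to 97275399 held 91.4% of the WT junctions (149 of 163; exact 95% interval 86.0% to 95.2%), 92.9% under idelalisib (351 of 378) and 91.4% in Lig4-KO (908 of 993). In AID-KO it held 3 of 10. The flanking 100 kb on either side held 0.812 junctions per 10000 per 100 kb in WT, so that the window stood 15.5 times above its surroundings there, 44.5 times under idelalisib and 20.3 times in Lig4-KO. In AID-KO this ratio was 1.54.

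Plus-strand junctions made up 55.1% of the chr8 window (851 of 1544; exact 95% interval 52.6% to 57.6%), where the share over all junctions outside the bait window was 50.1%. The share was 70.7% in WT DMSO (29 of 41; 54.5% to 83.9%), 50% in WT with tazemetostat (32 of 64; 37.2% to 62.8%) and 62.1% in WT with valemetostat (36 of 58; 48.4% to 74.5%). It was 59.5% over all WT libraries, 53.4% under idelalisib and 54.6% in Lig4-KO. All 10 AID-KO junctions were on the plus strand. In the other windows the share lay between 47.1% (chr11) and 52.0% (chr6), and all 4 of their intervals included 50%. In the chr8 window 1271 distinct pairs of position and strand held the 1544 junctions, and at most 5 libraries shared a pair. No pair recurred within a library, and whether repeats had been removed from the lists is not stated. Piling up at fixed bases could therefore be judged between libraries only.

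The chr11 window held 510 junctions, 364 of them in Lig4-KO. WT libraries stood at 2.86, 2.90, 4.43, 7.33 and 10.2 per 10000 with DMSO and at 1.15, 2.14, 3.88, 5.07 and 6.01 with tazemetostat. With valemetostat they ran from 0 to 7.39 with a median of 2.22. These ranges overlapped with those of idelalisib, where libraries ran from 2.36 to 13.4 with DMSO, from 3.81 to 13.6 with tazemetostat and from 4.67 to 8.74 with valemetostat. Lig4-KO libraries ran from 12.5 to 17.9 with DMSO, from 10.7 to 17.1 with tazemetostat and from 10.9 to 17.3 with valemetostat, so that each stood above all 18 WT libraries. AID-KO libraries held 7 junctions in all and 0 in all 4 tazemetostat libraries.

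The chr11 peak was about as narrow as that of chr8 where junctions were many. The narrowest stretch with 50% of the junctions was 1095 bases under idelalisib and 1373 bases in Lig4-KO. The 10 kb from 61464700 to 61474699 held 89.0% of the junctions under idelalisib (81 of 91) and 87.6% in Lig4-KO (319 of 364), but 66.7% in WT (32 of 48; exact 95% interval 51.6% to 79.6%). In the 5 kb densest in WT DMSO, AID-KO held 0 of its 7 junctions. A count of 0 among the 113004 AID-KO junctions outside the bait window allows up to 0.265 per 10000.

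The chr15 window held 306 junctions and lies on the bait chromosome. WT libraries stood at 4.35, 5.86, 7.63, 10.3 and 17.1 per 10000 with DMSO, at 2.91, 6.01, 8.05, 10.7 and 13.5 with tazemetostat, and from 0 to 6.75 (median 2.55) with valemetostat. Idelalisib libraries ran from 1.18 to 7.78 and Lig4-KO libraries from 2.91 to 11.7. The 3 backgrounds overlapped throughout. AID-KO libraries ran from 0 to 3.26 with 13 junctions in all.

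Junctions of the chr15 window fell into neighbouring clusters whose weight differed between backgrounds. The 5 kb from 79906400 to 79911399 held 48 of the 79 WT junctions and the next 5 kb held 20. In Lig4-KO the first held 53 of 156 and the second 85, and under idelalisib both held 22 of 58. The densest 1 kb began at 79906900 over all WT libraries and at 79911900 in Lig4-KO, while in WT with tazemetostat it began at 79912200, with 9 of 31 junctions. AID-KO put 7 of its 13 junctions in the first 5 kb and 2 in the second. The first 5 kb was chosen on WT DMSO junctions, so its share there is fixed in part. In WT with a compound, which had no part in that choice, 24 of 47 lay in the first and 16 in the second. The Lig4-KO libraries have a run to themselves, so that run and background cannot be told apart here.

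The chr16 window held 153 junctions. WT DMSO libraries spread widely, at 1.45, 2.54, 4.29, 8.80 and 16.2 per 10000, and 2 of the 5 carried 17 of its 23 junctions. With tazemetostat WT stood at 1.69, 2.14, 2.91, 4.01 and 6.90, and with valemetostat from 0 to 3.90 (median 1.99). Idelalisib libraries ran from 0 to 8.24, Lig4-KO libraries from 0 to 3.67 and AID-KO libraries from 0 to 4.79. The 4 ranges overlapped, and the window held 17 AID-KO junctions, rank 109 of 24999 there against rank 19 in WT and 236 in Lig4-KO.

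Most chr16 junctions of Lig4-KO lay in another stretch than most of those of WT. The 5 kb from 23111500 to 23116499 held 35 of 47 WT junctions, 31 of 48 under idelalisib, 7 of 17 in AID-KO and 1 of 41 in Lig4-KO. The 5 kb just below it, from 23106500 to 23111499, held 30 of the 41 Lig4-KO junctions against 8 in WT, 11 under idelalisib and 3 in AID-KO. WT libraries with a compound, which did not set these limits, had 17 of 24 in the upper and 4 in the lower stretch. Idelalisib with DMSO divided more evenly, with 7 of 15 in the lower and 6 in the upper stretch. The densest 1 kb began at 23108600 in Lig4-KO, at 23110500 in AID-KO, at 23111500 under idelalisib (23109400 in its DMSO libraries) and at 23113900 in WT. Within Lig4-KO the junctions formed a narrow band, with 50% of them within 1430 bases. All Lig4-KO libraries share 1 run that holds no other background, so the run and the background cannot be told apart here.

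The chr6 window held 150 junctions and had the sharpest peak of the 5. The narrowest stretch with 50% of its junctions measured 228 bases, from 18835415 to 18835642, and 138 of the 150 lay within 1 kb. Plus-strand junctions had their median 86.5 bases below that of minus-strand junctions. WT libraries stood at 1.48, 2.54, 5.71, 5.86 and 7.26 per 10000 with DMSO and at 0, 0, 3.45, 4.84 and 6.01 with tazemetostat. With valemetostat they ran from 0 to 5.55 with a median of 1.70. Idelalisib libraries ran from 0.729 to 7.06 and Lig4-KO libraries from 0 to 5.24. The 3 backgrounds overlapped in all treatments.

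AID-KO cells carried this peak too, at a lower pooled rate over the window (1.50 per 10000 against 2.94 in WT, DMSO libraries included). Their libraries stood at 0.756, 1.30, 1.63, 1.93 and 4.25 with DMSO, at 0, 1.20, 1.29 and 7.06 with tazemetostat and at 0, 0.692 and 1.30 with valemetostat. Of the 17 AID-KO junctions, 16 lay in the densest 1 kb from 18835200 to 18836199, spread over 9 of 12 libraries (exact 95% interval of the share in the surrounding 10 kb, 71.3% to 99.9%). Their narrowest 50% covered 177 bases, against 216 in WT. The tazemetostat library at 7.06 held 5 of the 17. AID-KO flanks held 0.531 per 10000 per 100 kb (12 junctions) and WT flanks 0.155 (4 junctions). The window stood 2.83 times above its flanks in AID-KO and 19.0 times above them in WT. Its own pooled rates were 1.50 and 2.94, so the contrast of these ratios rests in part on few flank junctions.

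**Figure D2:**
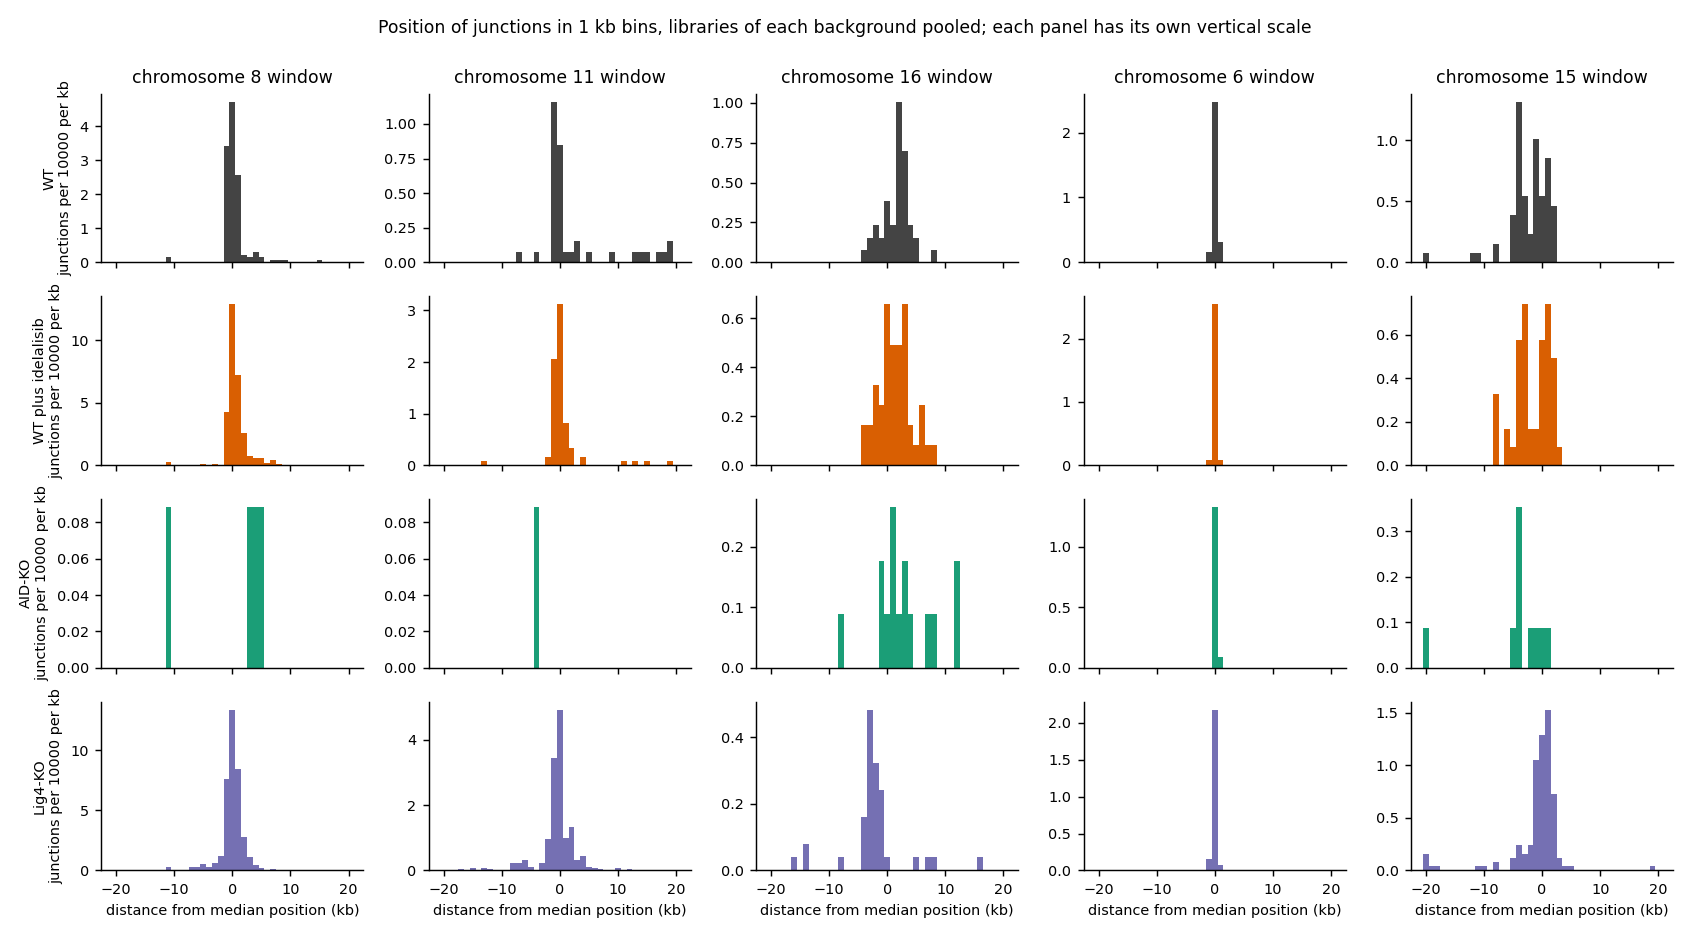
Junctions per 10000 in 1 kb bins (vertical axis, own scale per panel) against the distance in kb from the median junction position of each window (horizontal axis), pooled over the libraries of each background (rows) for the 5 windows (columns). The chr8 and chr11 peaks have no counterpart in AID-KO, the chr6 peak stands at the same place in all 4 backgrounds, and the chr16 peak lies lower in Lig4-KO.

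WT and AID-KO were compared again in the compound-treated libraries, which were taken to have had no part in the choice of the windows. That they had none could not be checked. Tallies of 113 windows with a mean of at least 2 junctions per library were fitted with limma voom (1 fit, 60 libraries, 12 groups), and p-values were adjusted over the 113 by Benjamini-Hochberg at 0.05. The mean ran over all 60 libraries, so a window low in AID-KO could pass through the other groups. AID-KO held from 7 to 17 junctions of each of the 5 windows over its 12 libraries. Shares and medians over the 113 therefore describe windows rich in junctions, not the genome. Over all 24999 windows the median pooled rate was 0.309 per 10000 in WT and 0.354 in AID-KO. With tazemetostat 36 windows were called (31.9%), among them 3 of the 5: chr8, chr11 and chr15. The chr8 rate was 16.3 ± 2.77 (SD, n = 5) in WT against 0.621 ± 0.718 (SD, n = 4) in AID-KO, a log2 difference of 3.84 (SE 0.46, adjusted p = 6.51e-12). For chr11 the rates were 3.65 ± 2.01 and 0 in all 4 AID-KO libraries, with a log2 difference of 2.46 that depends on voom's offset (adjusted p = 0.000136). For chr15 they were 8.24 ± 4.10 and 1.62 ± 1.18, a log2 difference of 1.98 (SE 0.56, adjusted p = 0.0026). WT and AID-KO libraries did not overlap in any of the 3, but overlap was not counted over the 113 windows. In chr11 the lowest WT library (1.15) held 1 junction.

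The chr16 and chr6 windows were not called with tazemetostat. Chr16 stood at 3.53 ± 2.08 against 2.28 ± 2.03, a log2 difference of 0.74 (95% interval -0.57 to 2.05, adjusted p = 0.431). Chr6 stood at 2.86 ± 2.76 against 2.39 ± 3.17, a log2 difference of 0.17 (-1.17 to 1.51, adjusted p = 0.861). The median log2 difference over the 113 windows tested was 0.74, so that chr16 lay at the middle of these junction-rich windows and chr6 below it. Widening the chr6 window by 50 kb on each side turned its difference to -0.60, and leaving out WT tazemetostat replicate 1, 3 or 5 or AID-KO tazemetostat replicate 3 turned it as well, to between -0.33 and -0.02. The chr15 call was lost without AID-KO tazemetostat replicate 2 (log2 1.46, adjusted p = 0.0623).

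With valemetostat 38 windows were called (33.6%), among them chr8 and chr15. The chr8 rate was 11.2 ± 6.59 (SD, n = 8) in WT against 0.699 ± 0.692 (SD, n = 3), a log2 difference of 3.55 (SE 0.51, adjusted p = 4.99e-09). The chr15 rate was 3.02 ± 2.36 against 0.692 ± 0.715, a log2 difference of 1.85 (SE 0.60, adjusted p = 0.0123), although 1 WT library was at 0 and the exact permutation test gave p = 0.139. Chr6 (log2 1.40, adjusted p = 0.0749), chr11 (1.04, adjusted p = 0.136) and chr16 (0.75, adjusted p = 0.377) did not pass, and the median of all windows was 1.20. Without AID-KO valemetostat replicate 1 the chr15 call was lost (log2 1.21, adjusted p = 0.217), and without WT valemetostat replicate 6 chr6 passed (log2 1.62, adjusted p = 0.0474). WT and AID-KO were never sequenced in the same run, so in both comparisons the run and the genotype cannot be told apart.

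The count of called windows with valemetostat depended on the stretch tested. Within the densest 5 kb of WT DMSO 4 windows were called, and within the densest 10 kb of the 43 libraries outside WT DMSO and AID-KO all 5 were. In both settings only the 5 windows were cut to the stretch, while the other windows tested kept their full 100 kb. Peaks were thus set beside whole windows, and these counts cannot be read against a share over all windows. That 10 kb stretch was added after the data were seen and was set in part by the WT libraries tested, which favours WT. The 5 kb stretch was placed on WT DMSO junctions, which also chose the windows, so it favours WT as well. Pooled over the 13 WT and the 7 AID-KO libraries with a compound, the rates in the 10 kb stretch were 11.8 and 0.271 per 10000 for chr8 (111 and 2 junctions). Their ratio was 43.5 (exact 95% interval 11.8 to 364). For chr15 the ratio was 8.04 (2.91 to 30.9), and for chr11 the stretch held 19 WT junctions and 0 AID-KO junctions. With a floor of 3 junctions over the AID-KO group the chr11 rate was 4.97-fold higher in WT. The exact 95% interval of the chr11 ratio began at 3.66. The ratios of chr16, 2.06 (0.876 to 5.38), and chr6, 1.92 (0.849 to 4.73), had intervals that include 1. Outside the 10 kb stretch the ratio was 2.88 (0.760 to 16.1) in the chr8 window and 1.41 (0.425 to 5.36) in the chr11 window. These ratios are a description of the pooled libraries, and the 13 WT libraries were among the 43 that placed the stretch.

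**Figure D3:**
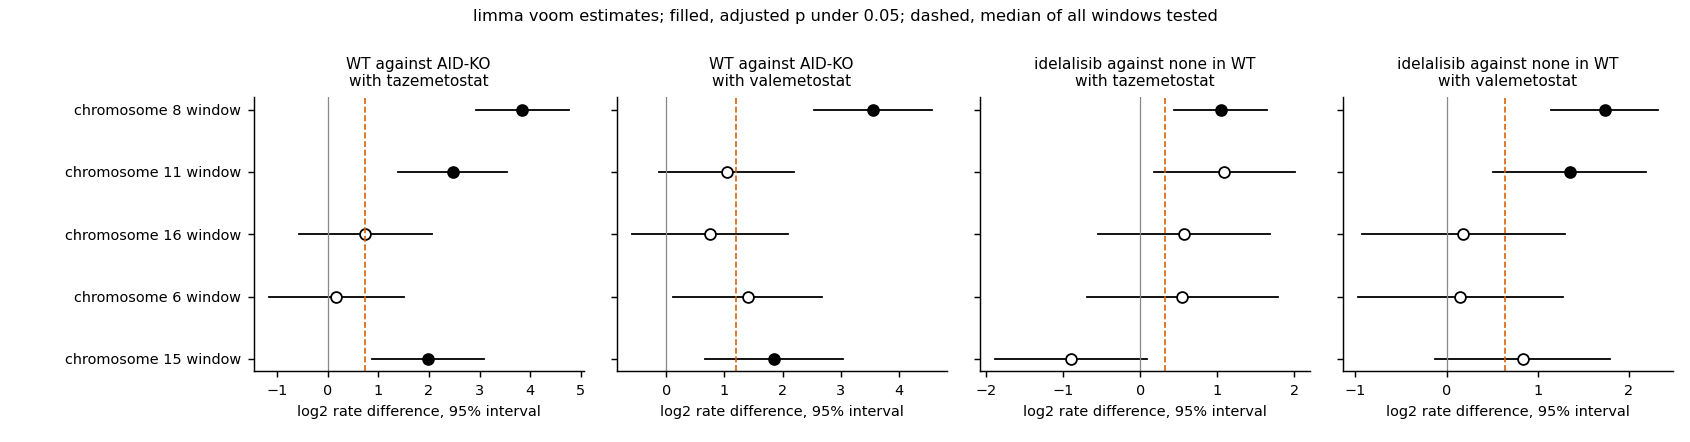
Log2 rate difference (horizontal axis) with its 95% interval for the 5 windows (rows) in 4 comparisons (panels), from limma voom, with calls filled, calls being an adjusted p under 0.05, and the median of all 113 windows as a dashed line. Chr8 passed in all 4 panels, and chr16 and chr6 in none.

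Idelalisib was compared with none in WT cells given the same EZH2 compound. With valemetostat, where both groups shared run 6, 41 windows were called (36.3%), among them chr8 and chr11. The chr8 rate was 32.8 ± 3.43 (SD, n = 5) with idelalisib against 11.2 ± 6.59 (SD, n = 8) without, a log2 difference of 1.73 (SE 0.30, adjusted p = 9.98e-07). The lowest idelalisib library (28.5) lay above the highest WT library (20.3). The chr11 rate was 6.86 ± 1.65 against 2.89 ± 2.43, a log2 difference of 1.35 (SE 0.42, adjusted p = 0.00813), with overlapping ranges. This chr11 call was lost with a mean tally of at least 1 (adjusted p = 0.12) and with thinned libraries (log2 0.87, adjusted p = 0.197). Chr15 (log2 0.84, adjusted p = 0.184), chr16 (0.18, adjusted p = 0.819) and chr6 (0.15, adjusted p = 0.849) did not pass, and the median of all windows was 0.64.

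With tazemetostat 14 windows were called (12.4%), of which chr8 was the only one of the 5. Its rate was 34.4 ± 6.20 with idelalisib against 16.3 ± 2.77 without (SD, n = 5 each), a log2 difference of 1.04 (SE 0.30, adjusted p = 0.0124), and the libraries did not overlap. Chr11 stood at 8.04 ± 3.73 against 3.65 ± 2.01, a log2 difference of 1.09 (adjusted p = 0.113). Chr15 was lower with idelalisib, at 4.03 ± 2.04 against 8.24 ± 4.10, a log2 difference of -0.90 (adjusted p = 0.264). Chr16 (0.56, adjusted p = 0.613) and chr6 (0.54, adjusted p = 0.680) were close to the median of all windows, 0.31. The chr8 call was lost without WT tazemetostat replicate 3 (log2 0.95, adjusted p = 0.0523), and here run and group cannot be told apart.

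The effect of idelalisib was then compared between the compounds by an interaction term. For chr8 it was larger with valemetostat by 0.69 on the log2 scale (SE 0.42, adjusted p = 0.374), and for chr15 by 1.74 (SE 0.69, adjusted p = 0.157). Neither passed, nor did the other 3 windows. In DMSO, idelalisib and WT are given as values only, since WT DMSO chose the windows: 26.6 against 11.7 for chr8, 7.36 against 5.54 for chr11, 5.43 against 9.07 for chr15, 3.62 against 6.67 for chr16 and 3.13 against 4.57 for chr6.

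Whether an EZH2 compound changed the windows was asked against DMSO in Lig4-KO and under idelalisib, since WT DMSO and AID-KO DMSO chose them. Windows lost in Lig4-KO had been set apart, so Lig4-KO values were not free of the choice. The effect of this on the Lig4-KO comparisons was not tested. In Lig4-KO, tazemetostat gave 8 called windows of 113 (7.08%), none of the 5 among them, and a median log2 difference of 0.43 over all windows. The chr8 rate was 34.0 ± 6.49 with DMSO and 43.3 ± 3.78 with tazemetostat (SD, n = 5 each), a ratio of 1.28 and a log2 difference of 0.37 (95% interval -0.11 to 0.85), which did not pass (adjusted p = 0.326). Valemetostat gave 0 called windows (0%; 23 at an unadjusted p under 0.05, and 25 by quasi-Poisson regression). There the chr8 rate was 43.5 ± 8.76, a log2 difference of 0.35 (-0.13 to 0.84, adjusted p = 0.354), with a median over all windows of 0.35. The chr8 difference was thus the size of the median shift over all windows in this background. Quasi-Poisson regression called chr8 in both comparisons (adjusted p = 0.022 and 0.0275), among 37 of the 113 windows with tazemetostat (32.7%) and 25 with valemetostat (22.1%).

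The other 4 windows had these rates in Lig4-KO. Chr11 stood at 15.5 ± 2.07 with DMSO, 13.7 ± 2.53 with tazemetostat and 14.7 ± 2.47 with valemetostat. Chr15 stood at 7.54 ± 2.51, 5.98 ± 1.21 and 5.60 ± 1.51. Chr16 stood at 1.50, 1.59 and 1.89 and chr6 at 2.61, 2.0 and 2.75, with overlapping libraries throughout. Adjusted p-values for these 4 windows against DMSO lay between 0.401 and 0.920. Valemetostat against tazemetostat gave 0 called windows in Lig4-KO (0%; 0 at an unadjusted p under 0.05, and 0 by quasi-Poisson regression). For chr8 that difference was -0.02 on the log2 scale with an interval from -0.49 to 0.46, and an interval of this width does not show that the compounds act alike.

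Under idelalisib no window of the 113 was called by limma voom with tazemetostat (0%; 12 at an unadjusted p under 0.05, and 0 by quasi-Poisson regression), with valemetostat (0%; 8 unadjusted and 1) or between the compounds (0%; 10 unadjusted and 0). The chr8 rate was 26.6 ± 2.85 with DMSO, 34.4 ± 6.20 with tazemetostat and 32.8 ± 3.43 with valemetostat (SD, n = 5 each). The ratios to DMSO were 1.29 and 1.24, and the exact permutation tests gave unadjusted p = 0.0238 and 0.0159, while limma voom gave log2 differences of 0.35 (-0.22 to 0.92, adjusted p = 0.687) and 0.30 (-0.27 to 0.87, adjusted p = 0.769). The chr8 window was thus 1.24 to 1.29 times its DMSO rate with either compound in either background, and none of these 4 differences passed the limma test over all windows. With all libraries thinned to the same number of junctions, the valemetostat difference in Lig4-KO was -0.025 on the log2 scale. Tazemetostat and DMSO shared a run here, while valemetostat was in another, so that for valemetostat run and group cannot be told apart. The difference of the tazemetostat effect between idelalisib and Lig4-KO was -0.02 for chr8 (SE 0.38, adjusted p = 0.965).

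Chr11 stood at 7.36 ± 4.05 with DMSO, 8.04 ± 3.73 with tazemetostat and 6.86 ± 1.65 with valemetostat under idelalisib. Chr16 stood at 3.62, 5.77 and 2.66, and its valemetostat libraries had a lower mean than the tazemetostat ones with overlapping ranges (exact permutation p = 0.0714, unadjusted; adjusted p = 0.519 by limma voom). Chr6 stood at 3.13, 3.29 and 2.24 and chr15 at 5.43, 4.03 and 5.11. In the 5 kb of chr16 densest in WT DMSO, tazemetostat stood at 4.48 ± 2.29 against 1.42 ± 1.30 with DMSO (SD, n = 5 each; exact permutation p = 0.0476, unadjusted), a difference that over the whole window did not pass (adjusted p = 0.823 by limma voom). This was picked from many such 5 kb tests against DMSO. Among them chr8 was higher with valemetostat under idelalisib (30.9 against 23.6, exact permutation p = 0.0238, unadjusted). Chr11 was lower with tazemetostat in Lig4-KO (10.4 against 13.2, exact permutation p = 0.0317, unadjusted).

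In WT the compounds could be compared with each other but not with DMSO, which chose the windows. Valemetostat against tazemetostat gave 6 called windows (5.31%), all lower with valemetostat, none of the 5 among them, and a median log2 difference of -0.39 over all windows. The chr15 rate was 3.02 ± 2.36 (SD, n = 8) with valemetostat against 8.24 ± 4.10 (SD, n = 5) with tazemetostat, a log2 difference of -1.34 (95% interval -2.25 to -0.44) just outside the threshold (adjusted p = 0.0554). It passed when WT tazemetostat replicate 5 or WT valemetostat replicate 1, 2, 6 or 8 was left out, with an adjusted p from 0.00565 to 0.0461, and under 6 other settings. Chr8 stood at 11.2 ± 6.59 against 16.3 ± 2.77, a log2 difference of -0.75 (-1.38 to -0.11, adjusted p = 0.148). The 2 groups were in different runs, so run and compound cannot be told apart. Against WT DMSO, tazemetostat stood at 1.39 times the rate for chr8 and 0.908 times for chr15, and valemetostat at 0.956 and 0.333 times, as values with no test.

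Lig4-KO and WT are set side by side as values only, because windows lost in Lig4-KO had been set apart from these 5. Pooled over treatments, Lig4-KO stood at 40.0 per 10000 for chr8, 14.7 for chr11, 6.29 for chr15, 2.46 for chr6 and 1.65 for chr16. WT with a compound, taken to have had no part in the choice of the windows, stood at 12.99, 2.98, 5.0, 2.34 and 2.55. With the WT DMSO libraries included, which chose the windows, WT stood at 12.6, 3.71, 6.11, 2.94 and 3.64, so that the order of Lig4-KO and WT turned for chr6.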

How the data were processed

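LAM-HTGTS libraries were sequenced on a MiSeq with paired reads of 250 bases, per the labels, and positions are in mm9, per the submitters' processing notes. No aligner, junction caller or filter is named in those sources. The authors deposited a headerless list per library with 1 line per junction: a position and strand, and a score from 16 to 222 of unstated meaning, which no test used. The lists do not state if they count positions from 0 or 1.

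Junctions were tallied per 100 kb window with Python 3.11.15, numpy 2.4.6, pandas 2.3.3 and scipy 1.17.1, over groups taken from the labels. The voom method of limma 3.58.1, run in R 4.3.3, was fitted to the tallies with junctions outside the bait window as library size. Permutation tests of the mean rate were exact, two-sided and unadjusted. Peaks were found by sliding stretches of 1, 5 and 10 kb in steps of 100 bases. All 5 windows are named in every one of the 11 comparisons. The windows, genes and tests were chosen with earlier results of these data known. On simulated tallies of tazemetostat against DMSO over 113 windows the fit recovered 62.7% of 2-fold and 100% of 4-fold changes in Lig4-KO, and 36.3% and 96.3% under idelalisib. The simulated tallies were Poisson counts around 1 pooled rate per window, with no further spread between libraries. Recovery in the real libraries can therefore be lower. The alternatives were other library sizes, tally minimums, stretches, models, thinning, the replicate number as a block and each library left out.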

Additional observations from a re-analysis of the deposited data

Results flagged for a closer look

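Of 54 groups of 4 to 8 libraries checked for a library far from the others, 2 had one, where chance alone flags about 1 in 20. In the chr8 window, Lig4-KO DMSO replicate 3 stood at 45.3 junctions per 10000 (58 junctions), while the next highest library of its group stood at 32.9 and the lowest at 29.6. In the chr15 window, Lig4-KO valemetostat replicate 3 stood at 2.91 (5 junctions), while the others ran from 6.11 to 6.46. Leaving out either library called none of the 5 windows in the Lig4-KO comparisons.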

How the results depend on the processing

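In the 6 comparisons within WT plus idelalisib and within Lig4-KO, none of the 5 windows was called under any setting of limma, and quasi-Poisson regression called 1 (chr8) with tazemetostat and 1 (chr8) with valemetostat in Lig4-KO, where it called 37 and 25 of all 113 windows. For WT against AID-KO with valemetostat the 2 calls became 1 with a mean tally of at least 1, with only the 2 groups compared, with thinned libraries and by quasi-Poisson regression, 4 within the densest 5 kb and with the replicate block, and 5 within the densest 10 kb; leaving out 1 library gave 1 to 3, and with tazemetostat 2 to 3. For valemetostat against tazemetostat in WT the 0 calls became 1 with the library size outside chromosome 15 and the immunoglobulin loci, a mean tally of at least 5, only the 2 groups, limma trend or quasi-Poisson regression, 2 with thinned libraries, and 0 to 1 without 1 library. For idelalisib with tazemetostat the 1 call became 0 with a mean tally of at least 1 and with thinned libraries, 2 with only the 2 groups, and 0 to 1 without 1 library. For idelalisib with valemetostat the 2 calls became 1 with a mean tally of at least 1, thinned libraries or the replicate block (chr11 lost, with the block at log2 0.79, adjusted p = 0.149). The narrowed and widened stretches were applied to the 5 windows only, while the other windows kept their full 100 kb. The narrowed ones were placed on libraries that include WT and no AID-KO, which favours WT over AID-KO. The lower tally minimum tests more windows and thinning keeps fewer junctions. For the other settings the cause was not tested.

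The directions listed next turned in differences that did not pass. The chr8 difference with valemetostat in Lig4-KO was -0.025 with thinned libraries. Chr6 in WT against AID-KO with tazemetostat was -0.60 when widened by 50 kb, and without 1 library it ran from -0.33 to 0.78, below 0 for 4 of 9 libraries. For idelalisib with valemetostat, chr16 ran from -0.12 to 0.53 without 1 library, below 0 without idelalisib replicate 4 or WT replicate 5. There chr6 was -0.19 with the replicate block, -0.066 to 0.52 without 1 library (below 0 without idelalisib replicate 3 or WT replicate 1 or 6) and -0.021 by quasi-Poisson regression, and chr15 was -0.21 in the densest 5 kb. The chr8 difference between WT and AID-KO passed under every setting run, at 3.53 to 4.60 with tazemetostat and 2.85 to 4.17 with valemetostat.

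Replicate numbers were not found to pair libraries: over 52 same-number pairs the correlation of deviations ran from -0.196 to 0.160, and 7 exceeded 0.1. Libraries are shallow for chr16 and chr6, where 1 junction can move a rate by up to 2.0 per 10000.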
